A study of Homo sapiens with 9 samples.

Results

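OVCA433 cells carrying hairpin 1 against MPZL3 (shRNA#1-MPZL3) were compared with OVCA433 cells carrying a control vector, gene by gene. The comparison took the 6 libraries of these groups, replicates A, B and C of each, out of 9 in the series. It covered the 15975 genes that passed a filter on low counts, of 58676 in the count table. The other 3 libraries carried shRNA#3-MPZL3 (hairpin 3), a second hairpin against the same transcript, and served to show which changes differed between the hairpins. OVCA433 is an established human line of ovarian serous adenocarcinoma, grown in RPMI 1640 with fetal bovine serum. In all groups the vector was delivered by lentivirus and carrying cells were selected with puromycin, so that each library came from a selected culture, and the sources do not describe clones. The methods of the study call the control vector empty at one point and scr at another, and which of these the control cells carried is uncertain. The 3 libraries of a group are described as biological replicates. Neither the labels nor the methods say that each came from a separate transduction, and p-values here measure the spread between these libraries.

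MPZL3 encodes a single-pass membrane protein with an immunoglobulin-like domain, of a family with adhesion proteins of the myelin sheath. Epithelial cells are held together by adherens junctions built on E-cadherin, by tight junctions built on claudins and occludin, and by desmosomes anchored on keratin filaments. In the epithelial-mesenchymal transition (EMT), factors of the ZEB, SNAIL and TWIST families repress these genes through E-box motifs, while vimentin, N-cadherin, fibronectin and fibrillar collagens come up. A short hairpin RNA silences its target through a seed-paired guide strand, and guides can also pair with unintended transcripts, which is why studies use more than one hairpin.

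The libraries of control and hairpin 1 held 19795216 to 23890191 counts, and those of hairpin 3 held 16850854 to 21839324. Mitochondrial genes took 2.75% to 4.01% of the counts over the 9 libraries. The 3 replicate A libraries, one of each group, stood apart on the third principal component, which held 5.81% of the variance, at 23.3 to 28.3 against negative values in all replicate B and C libraries. Levels are given as CPM, each count divided by its TMM-adjusted library total and scaled alike in all libraries. Fold changes are fitted log2 values of edgeR. The standard error (SE) given with them was derived, as the size of the change over the square root of its F statistic. It is approximate, and for genes near 0 counts in a group it does not give the counting error. A gene was called when its Benjamini-Hochberg adjusted p was under 0.05 and its change at least 2-fold.

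MPZL3 (ENSG00000160588, GRCh38 chromosome 11, 118226690 to 118252350) was read first, since it is the gene both hairpins target. It stood at 15.6, 21.9 and 21.0 CPM in control replicates A, B and C and at 1.87, 1.98 and 1.80 CPM with hairpin 1. The groups did not overlap, and the log2 fold change was -3.37 (SE 0.22, adjusted p = 6.065e-08). With hairpin 3 it stood at 1.94, 0.988 and 1.80 CPM, and the direct contrast of the hairpins gave a log2 difference of 0.25 (SE 0.26, adjusted p = 0.614).

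Hairpin 1 changed 2605 genes, or 16.3% of those tested, 1239 higher (7.76%) and 1366 lower (8.55%). The median log2 fold change over all tested genes was 0.00088. The hairpin 1 and control libraries did not overlap for 47.3% of the tested genes, so a gene without overlap is common in these data. A gene near 0 in 1 group could pass the count filter only through the other groups, so its call follows largely from the filter. That limit applies to such members of all lists below. With hairpin 3 against the same control libraries 2443 genes (15.3%) were called. Of the 2605 genes changed with hairpin 1, 1886 were called in the same direction with hairpin 3, so most of the changes described below were shared by the hairpins. A fold threshold placed inside the test left 1539 genes changed with hairpin 1, and dropping the fold threshold gave 6032.

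Genes of epithelial junctions and of the epithelial surface fell with hairpin 1. Of 38 tested genes of cell-cell junctions and the epithelial surface, 30 fell and 0 rose, or 78.9% called against 16.3% of all genes. Their median log2 fold change was -2.46. CDH1, the gene of E-cadherin (ENSG00000039068, chromosome 16, 68737225 to 68835548), went from 281, 275 and 270.0 CPM in control to 0.0467, 0.204 and 0.0858 CPM with hairpin 1, a log2 fold change of -11.23 (SE 0.29, adjusted p = 2.884e-11). EPCAM, an epithelial adhesion molecule (ENSG00000119888, chromosome 2, 47345158 to 47387601), went from 412, 420.1 and 376 CPM to 6.92, 4.68 and 4.85 CPM (log2 fold change -6.20, SE 0.17, adjusted p = 2.939e-11). Both genes were low in all 3 hairpin 1 libraries, with no overlap with control.

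RAB25, a small GTPase of apical recycling, held 2292 to 3029 counts in the control libraries and 0, 3 and 3 counts with hairpin 1, a ratio of 1378 with a 95% counting interval of 632.7 to 3755. CRB3, a subunit of the Crumbs polarity complex, held 346, 396 and 457 counts in control and 2, 1 and 0 with hairpin 1 (ratio 417, interval 142 to 2026). MAL2, a protein of apical transport, went from 436, 437 and 298 CPM to 1.08, 0.305 and 0.343 CPM (log2 fold change -9.39). RAB25 and CRB3 were thus at 3 counts or fewer in all hairpin 1 libraries, while MAL2 still held 23, 6 and 8 counts. Such intervals cover counting error alone, because reads amplified without molecular identifiers are not independent molecules. Members whose change did not pass the call included CTNNB1 at 0.30, CTNNA1 at 0.07, TJP1 at -0.45, DSP at -0.64 and CLDN1 at -0.31 on the log2 scale, the catenins, a tight junction scaffold, desmoplakin and a claudin. The list therefore did not move as a whole, and 8 of its 38 tested genes were not called. With hairpin 3 the same list also had 30 lower and 0 higher.

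Promoters of called genes were read for the E-box that ZEB and SNAIL factors bind, CACCTG or its reverse complement CAGGTG, in the 250 bases before the RefSeq start site. A promoter was available for 11481 of the 15975 tested genes. The motif stood in 252 of 875 promoters of genes lower with hairpin 1 (28.8%), in 113 of 837 of genes higher (13.5%) and in 14.9% of the 9769 not called, against 17.5% of all 27195 promoters in the table. Median GC content was 64% in the lower set, 64.4% in the higher set and 65.2% in the rest. Of called junction genes with a promoter, 7 of 16 held the motif. The sequences of CRB3, LAD1, RAB25, WNT10A and VIM are printed 5′ to 3′ on the gene's strand, with each E-box in capitals, to show promoters with and without the motif. CRB3, LAD1 and RAB25 fell nearly to 0 and carry it 5, 2 and 1 times, WNT10A fell to 0 counts and carries it 0 times, and VIM rose and carries it 0 times. They are RefSeq sequence on GRCh38.p14 at chr19:6464021-6464270 (plus strand), chr1:201399325-201399574 (minus strand), chr1:156060910-156061159 (plus strand), chr2:218880602-218880851 (plus strand) and chr10:17227991-17228240 (plus strand).
CRB3: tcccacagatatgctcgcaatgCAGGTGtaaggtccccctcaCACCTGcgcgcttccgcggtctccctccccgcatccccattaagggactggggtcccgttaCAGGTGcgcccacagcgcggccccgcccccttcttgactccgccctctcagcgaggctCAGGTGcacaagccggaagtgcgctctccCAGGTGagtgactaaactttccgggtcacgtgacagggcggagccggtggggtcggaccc
LAD1: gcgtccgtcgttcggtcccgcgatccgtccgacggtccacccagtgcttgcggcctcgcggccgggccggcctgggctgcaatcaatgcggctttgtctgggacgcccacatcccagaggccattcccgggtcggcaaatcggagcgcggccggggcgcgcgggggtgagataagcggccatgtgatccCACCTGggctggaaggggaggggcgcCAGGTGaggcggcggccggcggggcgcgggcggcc
RAB25: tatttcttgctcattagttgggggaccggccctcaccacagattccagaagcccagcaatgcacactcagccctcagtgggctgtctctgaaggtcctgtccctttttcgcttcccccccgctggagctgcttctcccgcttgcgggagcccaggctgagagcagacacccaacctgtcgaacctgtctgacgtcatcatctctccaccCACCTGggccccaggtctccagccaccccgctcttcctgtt
WNT10A: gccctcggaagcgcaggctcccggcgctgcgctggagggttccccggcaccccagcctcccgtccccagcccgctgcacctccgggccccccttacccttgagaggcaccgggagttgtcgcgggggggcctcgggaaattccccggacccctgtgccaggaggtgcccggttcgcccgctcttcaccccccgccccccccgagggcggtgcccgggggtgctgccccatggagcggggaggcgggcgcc
VIM: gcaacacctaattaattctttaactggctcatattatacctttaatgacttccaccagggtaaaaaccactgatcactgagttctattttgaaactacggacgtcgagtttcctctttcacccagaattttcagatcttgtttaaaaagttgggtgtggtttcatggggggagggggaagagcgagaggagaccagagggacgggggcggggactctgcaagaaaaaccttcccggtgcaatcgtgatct
The first base of the E-boxes lay at -228, -208, -147, -89 and -60 from the start in CRB3, at -61 and -35 in LAD1 and at -41 in RAB25. A match is a description of letters and does not show that a factor bound there.

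Keratins, the filaments of epithelial cells, fell in 9 of 11 tested genes and rose in 0, with a median of -2.01. This was 81.8% called, against 16.3% of all genes. KRT18 and KRT8, the pair of simple epithelia, fell by 1.45 and 1.19 on the log2 scale, and KRT8 went from 4718, 4643 and 5086 CPM to 2177, 1880.0 and 2283 CPM. KRT7 was at -0.32 and KRT17 at -0.51, neither of them called. KRT81 fell further, from 1658, 2540.0 and 2724 CPM to 24.1, 98.3 and 58.4 CPM, although its reads can be shared with its near copy KRT86. KRT15 went from 26.2, 25.1 and 28.0 CPM to 1.12, 1.07 and 1.46 CPM (log2 fold change -4.42, SE 0.25). KRT8, KRT18 and KRT7 were not picked by the rule for named genes and were chosen after their values were seen.

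Transcription and splicing factors that maintain epithelial identity were lost more completely. Of 18 tested, 16 fell and 0 rose, or 88.9% called against 16.3% of all genes, with a median of -4.71. Members at or near 0 with hairpin 1 passed the count filter only through the other groups. VGLL1, a cofactor of TEAD factors, held 2394 to 2714 counts in control and 0 in every hairpin 1 library, at least 896-fold lower. GRHL2, a grainyhead factor that drives junction genes, held 2072 to 2655 counts in control and 0 with hairpin 1, at least 796-fold lower. ESRP1, the splicing regulator of epithelial isoforms, went from 184, 172 and 161 CPM to 0.187, 0 and 0 CPM, and RBM47, another RNA-binding regulator, from 59.9, 59.2 and 54.2 CPM to 1.36, 1.22 and 1.07 CPM. OVOL1 and OVOL2, zinc finger repressors of mesenchymal genes, were at 0 to 0.187 CPM in all hairpin 1 libraries, from 10.7 to 19.3 CPM in control. The bounds are set against 3 counts in each library of the group at 0. KLF5 at -0.77 and TFAP2A at 0.57 were not called.

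Of 19 membrane and secreted serine proteases and inhibitors of the epithelial surface, 15 passed the count filter and all of these fell, but those at 0 with hairpin 1 could pass it only through the other groups and had to differ. The fitted median was -8.62, and -5.74 with the 8 members at 0 in all hairpin 1 libraries set to their bound. ST14, the gene of matriptase, a protease that processes surface proteins of epithelia, went from 384, 408 and 427 CPM to 0.0467, 0.204 and 0.0858 CPM (log2 fold change -11.79, SE 0.24, adjusted p = 8.813e-12). PRSS22, TMPRSS4 and TMPRSS13 had 0 counts in every hairpin 1 library, at least 131-fold, 122-fold and 74.2-fold lower. SERPINB5, the gene of maspin, and SPINT2, an inhibitor of matriptase, fell least, by 1.41 and 2.40 on the log2 scale. TMPRSS4, TMPRSS13, ST14 and MPZL3 all lie on chromosome 11.

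A drop from 100 counts or more in each of the control libraries to 3 or fewer in each hairpin 1 library was met by 52 of 10739 genes. Of these, 24 had 0 counts in all 3 hairpin 1 libraries, 47 were protein-coding, and 34 were also at 3 counts or fewer in each hairpin 3 library. LAD1, an anchoring filament protein of basement membranes, led them at 4097, 3882 and 4114 counts in control and 0 with hairpin 1, at least 1396-fold lower. SYK, a kinase found in blood and epithelial cells, was at least 352-fold lower, CBLC, an epithelial ubiquitin ligase, at least 264-fold, WNT10A, a Wnt ligand, at least 220.3-fold, and COBL, an actin nucleator, at least 177-fold. MUC20, a membrane mucin, was at least 288-fold lower, and its reads can be shared with near copies. The reverse pattern, from at most 3 counts in each control library to at least 100 in each hairpin 1 library, was met by 1 gene of 10673, CDH6.

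**Figure D1:**
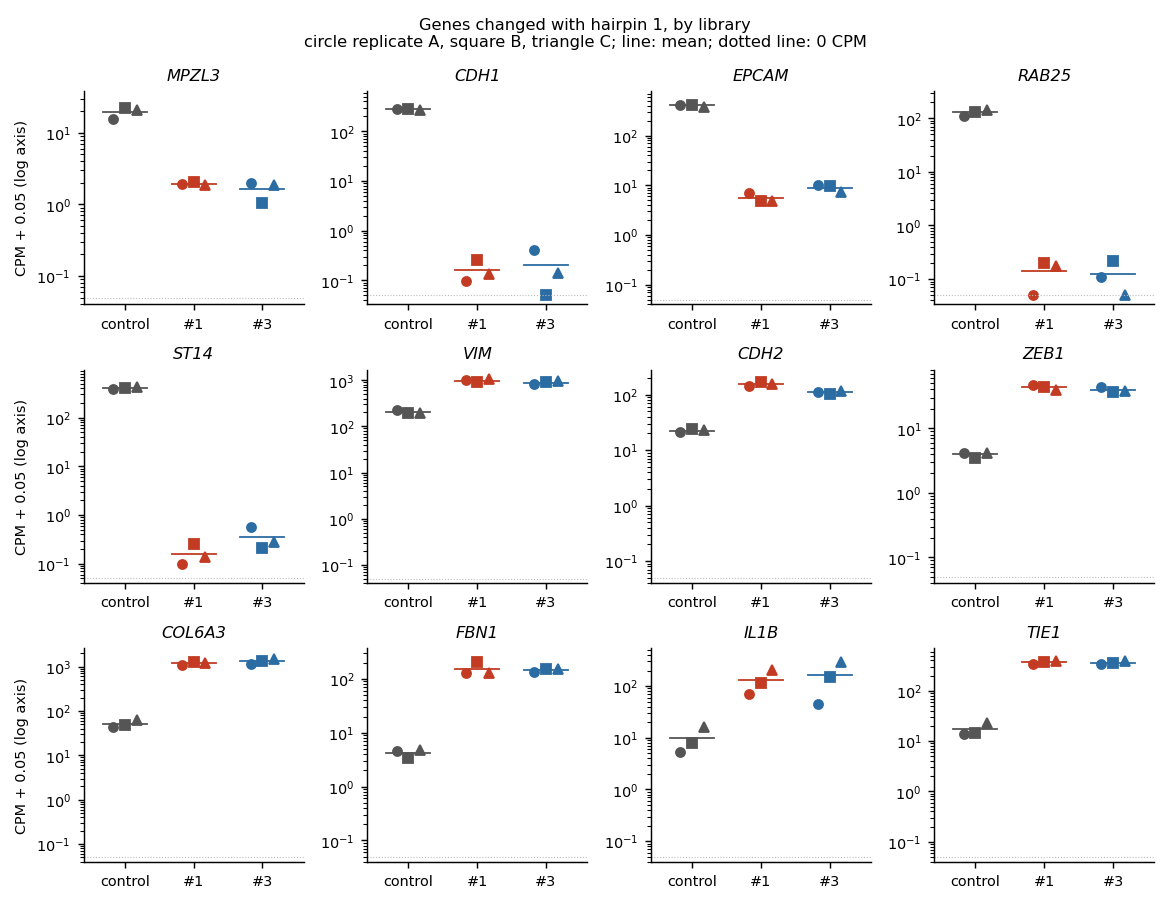
Level of 12 genes in each of the 9 libraries, in CPM plus 0.05 on a log axis, for control vector, hairpin 1 (#1) and hairpin 3 (#3), with circles, squares and triangles for replicates A, B and C, a line at the mean of the group and a dotted line at 0 CPM. CDH1, EPCAM, RAB25 and ST14 lie far below control in all hairpin 1 libraries, and VIM, CDH2, ZEB1, COL6A3, FBN1, IL1B and TIE1 lie above it.

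Mesenchymal genes rose, with a narrower reach. Of 8 tested EMT transcription factors, 7 rose and 0 fell, or 87.5% called against 16.3% of all genes, with a median of 2.25. ZEB1, a repressor of CDH1, went from 4.17, 3.48 and 4.11 CPM to 47.6, 44.1 and 39.1 CPM (log2 fold change 3.47, SE 0.13, adjusted p = 5.075e-10). ZEB2 went from 2.13, 2.59 and 3.35 CPM to 32.7, 32.1 and 27.4 CPM, and SNAI1 from 3.05, 2.69 and 3.78 CPM to 15.5, 32.6 and 21.1 CPM. SNAI2 was the member without a call, at 35.3, 30.1 and 31.5 CPM in control and 35.3, 26.7 and 31.7 CPM with hairpin 1, a log2 difference of -0.05 (SE 0.12, adjusted p = 0.789) whose sign turned when single libraries were left out. TCF4 and TWIST1 rose by 2.28 and 1.18 on the log2 scale.

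Of 19 tested mesenchymal markers, 9 rose and 0 fell, or 47.4% called against 16.3% of all genes, with a median of 0.92. VIM, the gene of the intermediate filament vimentin (chromosome 10, 17228259 to 17237593), went from 225, 192 and 192 CPM to 992, 926 and 1044 CPM (log2 fold change 2.28, SE 0.11). CDH2, the gene of N-cadherin, went from 20.8, 23.99 and 22.7 CPM to 142, 170.4 and 156 CPM (log2 fold change 2.80, SE 0.11), and FN1, the gene of fibronectin, from 1297, 1807 and 1676 CPM to 4789, 12910 and 7627 CPM (2.41, SE 0.31). PDGFRB, NNMT and FOXF1, a growth factor receptor, a methyltransferase and a forkhead factor of mesenchyme, rose by 4.63, 5.19 and 5.38 on the log2 scale. CD248, the gene of endosialin, held 0, 1 and 1 counts in control and 77, 93 and 99 with hairpin 1, a ratio of 129 with an interval of 35.3 to 1069. CD248 passed the count filter only through the hairpin groups. Contractile genes were among those without a call, with TAGLN at 0.17, CALD1 at 0.31, TPM2 at 0.14 and MYL9 at 0.60. The contractile genes were named after their values were seen.

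Collagens rose in 15 of 23 tested genes and fell in 1, or 69.6% called against 16.3% of all genes, with a median of 1.59. COL1A2 and COL3A1 each held 1, 0 and 0 counts in control and passed the count filter only through the hairpin groups. COL3A1 lost its call in 4 alternative settings. COL6A3, a chain of the microfibrillar collagen, went from 43.5, 48.5 and 62.7 CPM to 1080.0, 1258 and 1185 CPM (log2 fold change 4.51, SE 0.16). COL1A1, a chain of fibrillar collagen, went from 20.1, 16.7 and 16.9 CPM to 94.9, 417 and 425 CPM (4.12, SE 0.45), with hairpin 1 replicate A the lowest of its group. COL1A2, its partner chain, held 1, 0 and 0 counts in control and 22, 88 and 57 with hairpin 1, a ratio of 160.0 with an interval of 28.3 to 6356. COL17A1, the transmembrane collagen of hemidesmosomes, was the member that fell, by 2.65 on the log2 scale.

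Matrix glycoproteins and proteoglycans rose in 13 of 28 tested genes and fell in 3, or 57.1% called against 16.3% of all genes, with a median of 1.04. FBN1, the gene of fibrillin, went from 4.46, 3.33 and 4.78 CPM to 130.3, 202 and 128 CPM (log2 fold change 5.19, SE 0.21), and VCAN, the gene of versican, from 6.59, 4.43 and 4.25 CPM to 179, 190.4 and 103 CPM. BGN, the gene of biglycan, went from 0.969, 0.647 and 0.765 CPM to 13.7, 28.5 and 24.4 CPM, and stood at 154, 144 and 145 CPM with hairpin 3. HAPLN1, LTBP1 and IGFBP5 fell. Matrix proteases, their inhibitors and crosslinkers were split, 10 higher and 5 lower of 28 (53.6% called), with a median of 0.46. ADAMTS5, which cuts proteoglycans, rose from 8.38, 7.27 and 7.55 CPM to 84.5, 206 and 133 CPM, and LOX, which crosslinks collagen, from 15.4, 23.1 and 29.3 CPM to 116, 209.6 and 175 CPM, while MMP7 and TIMP4 fell by 3.55 and 3.65 on the log2 scale. Integrins and laminins went the other way in more genes, 4 higher and 10 lower of 26 (53.8% called) with a median of 0.06. ITGB6, ITGB4 and LAMA3, subunits of epithelial integrins and of the hemidesmosome ligand, fell by 6.04, 3.89 and 3.65, and ITGA11, a collagen receptor subunit, rose by 5.40.

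**Figure D2:**
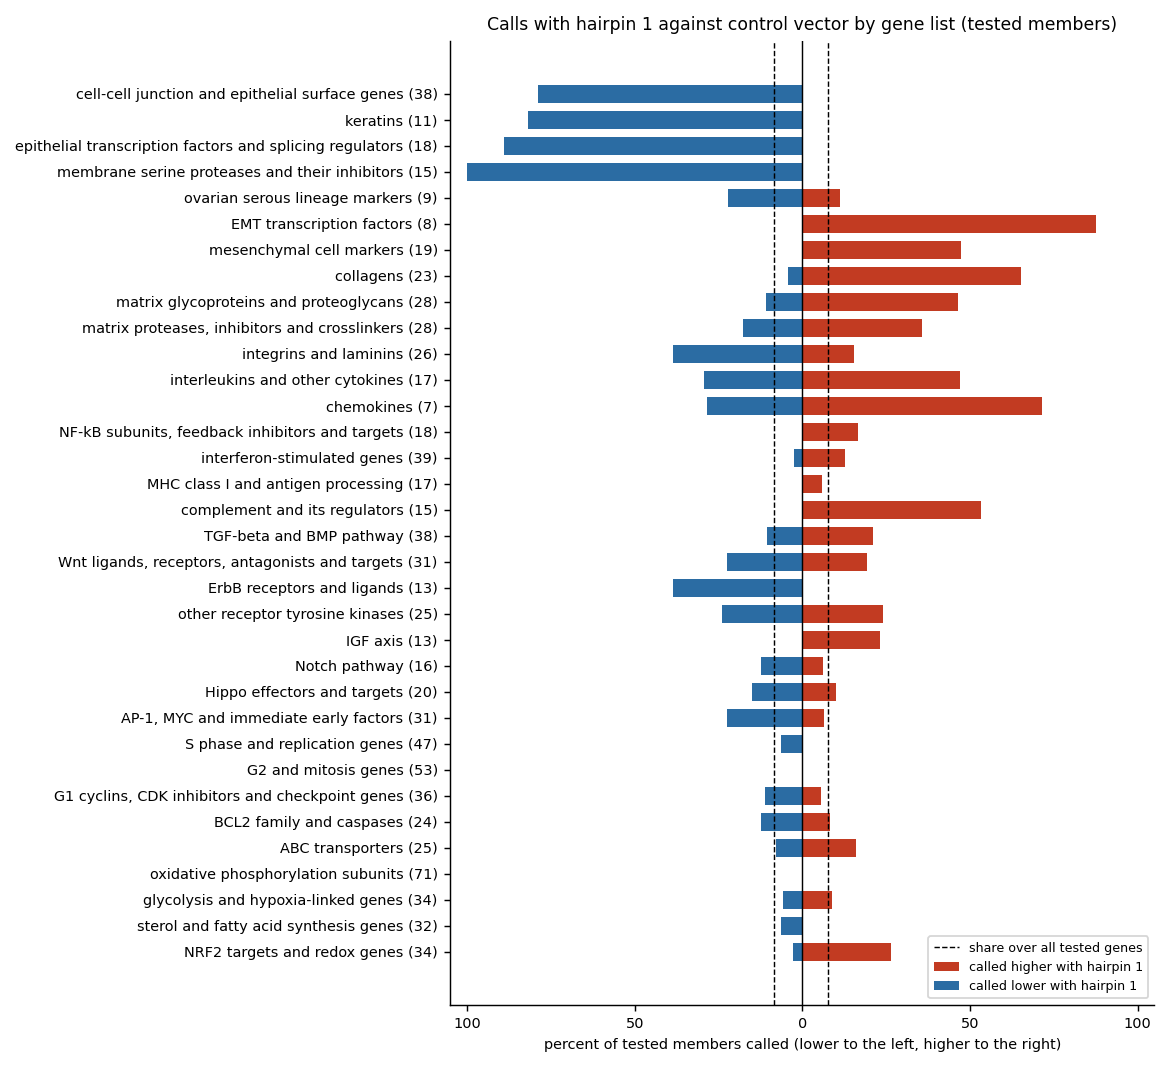
Percent of the tested members of each gene list that were called higher (red, to the right) or lower (blue, to the left) with hairpin 1, for the lists with at least 7 tested members (number in parentheses). Dashed lines mark the shares over all tested genes, 7.76% higher and 8.55% lower; the serine protease and epithelial lists reach far to the left and the EMT transcription factors far to the right.

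Cytokine and chemokine genes rose in part. Of 17 tested interleukins and other cytokines, 8 rose and 5 fell, or 76.5% called against 16.3% of all genes, with a median of 0.71. IL1B went from 5.38, 7.96 and 16.3 CPM to 69.0, 113 and 207 CPM (log2 fold change 3.72, SE 0.62, adjusted p = 0.0003601), and IL1A from 5.57, 7.27 and 9.89 CPM to 40.0, 71.0 and 86.8 CPM (3.12, SE 0.37). IL6 went from 1.21, 1.69 and 2.34 CPM to 5.65, 35.6 and 21.1 CPM (3.56, SE 0.64, adjusted p = 0.0006534). The replicate A library was the lowest of its group for IL1A, IL1B, IL6, CXCL8 and CXCL1 in all 3 groups, and the part of this in the results was not tested. Without the replicate A libraries all of these 5 genes were still called. IL1RN, the antagonist of the interleukin 1 receptor, fell by 4.09 on the log2 scale, and TNFSF15 by 5.03. CSF3 held 0 counts in all control libraries and 4, 19 and 10 with hairpin 1, at least 3.61-fold higher.

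Of 19 chemokines 7 passed the count filter, and all of these were called, 5 higher and 2 lower, with a median of 3.04. Over all tested genes 16.3% were called. A member near 0 in a group could pass the filter only through the other groups, and its call then follows from the filter. CXCL8 went from 5.42, 15.4 and 14.3 CPM to 28.6, 129 and 93.4 CPM (log2 fold change 2.84, SE 0.68, adjusted p = 0.004668), and CXCL1 from 12.6, 62.1 and 66.9 CPM to 196, 719 and 600.1 CPM (3.42, SE 0.73). CXCL1, CXCL2, CXCL3 and CXCL8 are neighbours on chromosome 4. CXCL16 and CCL28, made by epithelia, fell, CXCL16 from 68.7, 104 and 104.9 CPM to 2.06, 2.595 and 1.89 CPM. Subunits, feedback inhibitors and targets of NF-kB had 3 higher and 0 lower of 18, or 16.7% called, near the 16.3% of all genes. SOD2, NFKBIZ and PTGS2 were these 3, at log2 fold changes of 2.52, 1.67 and 1.11, and PTGS2 missed the fold threshold without control replicate A (0.97) or hairpin 1 replicate B (0.86). NFKBIA at 0.29, TNFAIP3 at -0.65 and ICAM1 at -0.34 were not called.

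Interferon-stimulated genes had 5 higher and 1 lower of 39 tested, or 15.4% called against 16.3% of all genes. IFITM2, IFI44L, IFITM1, OASL and OAS2 rose and IFIT2 fell, while ISG15 was at -0.56, not called. IFITM1 and IFITM2 overlap and share sequence, and IFITM1 missed the call without hairpin 1 replicate B (adjusted p = 0.05649). Genes of MHC class I and antigen processing had 1 higher and 0 lower of 17, or 5.88% called, under the share of all genes. The 1 was NLRC5, the transactivator of class I genes, at 1.29 (SE 0.12), and 2 were called without hairpin 1 replicate C. Of 24 complement genes and regulators 15 passed the count filter, with 8 higher and 0 lower, or 53.3% called against 16.3% of all genes, and a median of 1.75. C1S, a protease of the classical pathway, went from 0.339, 0.547 and 0.430 CPM to 19.5, 67.0 and 44.7 CPM, and C3, the central component, from 48.9, 149 and 155 CPM to 336, 1394 and 657 CPM. CP, the gene of ceruloplasmin that the list also holds, rose from 0.242, 0.398 and 0.143 CPM to 10.3, 18.3 and 7.07 CPM, and C4BPB, a subunit of an inhibitor of the classical pathway, from 0.581, 0.348 and 0.0478 CPM to 23.2, 25.1 and 40.2 CPM. These genes make secreted proteins that are mainly of liver origin in the body.

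Signalling lists moved in both directions. The TGF-beta and BMP pathway had 8 higher and 4 lower of 38, or 31.6% called against 16.3% of all genes, with a median of 0.37. INHBA, the gene of an activin subunit, went from 8.67, 14.7 and 17.6 CPM to 57.7, 138 and 96.0 CPM, while INHBB, the other subunit, held 439 to 545 counts in control and 2, 0 and 1 with hairpin 1. ID4 fell by 4.36 and ACVRL1, a receptor, rose by 2.79 on the log2 scale. Ligands, receptors, antagonists and targets of Wnt had 6 higher and 7 lower of 31, or 41.9% called. WNT7A fell from 17.1, 16.9 and 19.6 CPM to 0.280, 0.0509 and 0.214 CPM, and WNT6 from 51, 85 and 153 counts to 1 count in each library. WNT5A, a ligand of non-canonical signalling, rose from 0.969, 1.29 and 1.24 CPM to 5.19, 10.48 and 10.98 CPM (log2 fold change 2.92, SE 0.30). AXIN2 and LEF1, targets and mediators of canonical signalling, rose by 1.97 and 1.28.

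ErbB ligands fell. Of 13 tested receptors and ligands 5 fell and 0 rose, or 38.5% called against 16.3% of all genes. The median was -0.85, and all 5 were ligands. AREG, the gene of amphiregulin, went from 4.02, 3.48 and 2.68 CPM to 0.374, 0.458 and 0.3001 CPM, and HBEGF from 28.2, 33.4 and 30.4 CPM to 6.59, 4.32 and 7.42 CPM. EGFR was at 0.43, ERBB2 at -0.85 and ERBB3 at -0.61, not called. AREG, EPGN and BTC lie on chromosome 4, whose genes were shifted downward with hairpin 1, and BTC was not called once that shift was removed (-0.87). Other receptor tyrosine kinases had 6 higher and 6 lower of 25, or 48% called. TIE1, known from vessels, went from 13.8, 14.7 and 22.5 CPM to 346, 365 and 394 CPM (log2 fold change 4.44, SE 0.17), and KDR from 0.484, 0.149 and 0.239 CPM to 2.66, 2.39 and 2.57 CPM. EPHA1 and FGFR2, receptors of epithelia, fell by 6.14 and 4.85, and FGFR1 rose by 2.19.

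The IGF axis had 3 higher and 0 lower of 13, or 23.1% called against 16.3% of all genes, and 5 calls without hairpin 1 replicate B. IGFBP5, an IGF-binding protein, was counted with the matrix glycoproteins and not here, and it fell. IGF2, a growth factor, held 0, 1 and 0 counts in control and 42, 111 and 55 with hairpin 1, a ratio of 199 with an interval of 35.4 to 7907. STC1 and PAPPA rose by 2.37 and 2.64 on the log2 scale. Notch genes had 1 higher and 2 lower of 16, or 18.8% called, near the 16.3% of all genes, with MFNG higher and JAG2 and HES4 lower, and 5 calls without hairpin 1 replicate A. Hippo effectors and targets had 2 higher and 3 lower of 20, or 25% called. Among them AMOT rose from 0.242, 0.796 and 0.287 CPM to 7.76, 5.75 and 4.85 CPM and AMOTL1 fell by 1.56, while YAP1 was at -0.00081. Among AP-1, MYC and immediate early factors 2 rose and 7 fell of 31, or 29% called. MYCN held 640 to 791 counts in control and 1, 0 and 0 with hairpin 1, a ratio of 2275 with an interval of 407.9 to 89890. MYC was at 96.4, 102 and 109 CPM in control and 125, 120.4 and 165 CPM with hairpin 1, under the fold threshold (log2 fold change 0.42, SE 0.15, adjusted p = 0.04551). EGR1 and SPRY1 fell by 3.27 and 1.78 on the log2 scale.

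S phase and replication genes had 0 higher and 3 lower of 47, or 6.38% called against 16.3% of all genes, with a median of -0.15. CDC25A, a phosphatase that starts S phase, went from 57.8, 45.5 and 41.9 CPM to 25.9, 14.9 and 21.1 CPM (log2 fold change -1.23, SE 0.19). CCNE1 at -1.14 and E2F8 at -1.10 were the others, and without hairpin 1 replicate B the fold threshold was missed by both, at -0.97 and -0.89. E2F8 missed it also without control replicate A (-0.97) or hairpin 1 replicate C (-0.98). Of 53 tested genes of G2 and mitosis 0 were called by edgeR and 0 by DESeq2, with 12 at an unadjusted p under 0.05, 7 of them higher and 5 lower. KIF14 at 0.61 and CDC25B at 0.85 had the largest changes there, and CDC25B, on chromosome 20, reached 1.15 with the median of its chromosome removed.

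Cyclins of G1, CDK inhibitors and cell cycle checkpoint genes had 2 higher and 4 lower of 36, or 16.7% called, near the 16.3% of all genes. CCND1, the gene of cyclin D1, went from 1128, 1184 and 1157 CPM to 600.3, 383 and 540.0 CPM (log2 fold change -1.19, SE 0.15, adjusted p = 2.839e-05). CCND2 went from 4.70, 3.04 and 4.54 CPM to 0.234, 0.204 and 0.643 CPM. CDKN1A, the gene of p21, went from 494, 619.5 and 722 CPM to 218, 348 and 303 CPM (-1.08, SE 0.17), under the fold threshold without control replicate C (-0.94) or hairpin 1 replicate A (-0.91). CDKN1C, the gene of another CDK inhibitor, rose by 1.63 on the log2 scale. LMNB1, a nuclear lamin, stood at 217, 164 and 166 CPM in control and 220.1, 162 and 176 CPM with hairpin 1 (0.03, SE 0.15, adjusted p = 0.905).

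The BCL2 family and caspases had 2 higher and 3 lower of 24, or 20.8% called, near the 16.3% of all genes. BCL2L1, the gene of the survival factor BCL-XL, fell from 238, 251 and 246 CPM to 94.9, 69.6 and 98.4 CPM (log2 fold change -1.48, SE 0.12). BIK, a BH3-only killer, fell by 2.23 and BMF, another, rose by 1.72. CASP6, on chromosome 4, fell by 1.02 and missed the fold threshold with the median of its chromosome removed (-0.62) and without control replicate B (-0.92) or hairpin 1 replicate A (-0.99). ABC transporters had 4 higher and 2 lower of 25, or 24% called. ABCC3, an exporter of conjugated organic anions, rose from 18.4, 14.6 and 15.9 CPM to 54.4, 161 and 106 CPM (2.72, SE 0.29), and ABCA6 held 0 counts in all control libraries and 40, 133 and 70 with hairpin 1, at least 26.6-fold higher. ABCA6 passed the count filter only through the hairpin groups.

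Genes of the NRF2 response, which handle oxidants and quinones, rose in 9 of 34 tested genes and fell in 1, with a median of 0.35. This was 29.4% called, against 16.3% of all genes. AKR1C3 (chromosome 10, 5035354 to 5107686), a ketosteroid reductase, went from 4.75, 6.12 and 6.79 CPM to 25.4, 70.3 and 56.3 CPM (log2 fold change 3.10, SE 0.38), and AKR1C1 from 2.32, 1.34 and 2.01 CPM to 7.38, 23.9 and 14.1 CPM (2.99, SE 0.43). NQO1, a quinone reductase, went from 333, 319.6 and 399 CPM to 626, 920.1 and 1076 CPM (1.32), and TXNRD1 and FTL rose by 1.39 and 1.47. These last 3 genes were picked with their values in view. Reads of AKR1C1, AKR1C2 and AKR1C3 can be shared, since these genes are near-identical. ALDH1A3 was the member that fell, by 2.52. GCLC at -0.06, HMOX1 at 0.21 and SRXN1 at -0.17 were not called.

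Of 71 tested subunits of oxidative phosphorylation 0 were called by edgeR and 0 by DESeq2, with 20 at an unadjusted p under 0.05, 3 of them higher and 17 lower. The list had a median of -0.08, and COX6A1 at -0.89 and ATP5L at -0.84 had the largest changes. COX6A1 passed the fold threshold without hairpin 1 replicate B (-1.05) or C (-1.06). Glycolysis and hypoxia-linked genes had 3 higher and 2 lower of 34, or 14.7% called, near the 16.3% of all genes. EGLN3, an oxygen-sensing prolyl hydroxylase, fell from 18.1, 19.6 and 20.2 CPM to 0.608, 0.509 and 0.343 CPM, and NDRG1 rose by 2.599 on the log2 scale, while SLC2A1 at 0.13 and LDHA at 0.25 were not called. Without hairpin 1 replicate B only 2 genes of this list were called, and 3 without control replicate A. Sterol and fatty acid synthesis had 0 higher and 2 lower of 32, or 6.25% called, under the share of all genes. The 2 were ACSL1 at -1.59 and ELOVL6 at -1.08, both on chromosome 4. ELOVL6 was not called without hairpin 1 replicate B (-0.93) or once the chromosome shift was removed (-0.67).

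Markers of other cells and of the tissue of origin were read beside these lists. In bulk RNA, fewer cells of a type and less RNA per cell cannot be told apart. Of 15 ovarian serous markers 9 were tested, with 1 higher and 2 lower, or 33.3% called against 16.3% of all genes. PAX8, the lineage factor, stood at 115, 93.4 and 82.3 CPM in control and 214, 196 and 190.5 CPM with hairpin 1 (log2 fold change 1.04, SE 0.13), under the fold threshold without control replicate C (0.94) or hairpin 1 replicate A (0.99). MUC16, the gene of CA125, held 42 to 86 counts in control and 0 with hairpin 1, at least 22.6-fold lower, and WFDC2, the gene of HE4, fell by 5.45 on the log2 scale. WT1, PGR, EMX2 and SLC34A2 were at 0 in all control libraries, so these markers were absent from the line itself.

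Leukocyte markers summed to 1.67 to 2.71 CPM in control and 1.93 to 2.39 CPM with hairpin 1, with LYZ, TYROBP and MS4A1 at 0 in both groups. Of the 2 tested, ITGAX was called higher, from 0, 0 and 3 counts to 6, 19 and 21, but it passed the count filter only through the hairpin groups. Endothelial markers summed to 54.6 to 85.2 CPM in control and 406 to 478 CPM with hairpin 1, of which TIE1 made 346 to 394 CPM, with EMCN at 0 in both groups and 2 of 5 tested markers higher, TIE1 and CDH5. CDH5 held 1, 2 and 3 counts in control and passed the count filter only through the hairpin groups. Mesothelial markers summed to 339 to 389 CPM and 181 to 210.1 CPM, with 1 higher and 3 lower of 6, or 66.7% called against 16.3% of all genes. UPK3B fell by 6.70 and PDPN by 5.47 on the log2 scale. Fibroblast markers summed to 18.7 to 22.9 CPM and 103 to 435 CPM. Of its 12 members 6 passed the count filter and were called higher, with a median of 4.01, or 3.56 with TCF21 at its bound, but TCF21, COL1A2, COL3A1 and MEOX1 held 0 to 4 counts in each control library and passed it only through the other groups. Of those not tested, PI16 held 8, 4 and 17 counts in control and 2, 0 and 2 with hairpin 1, and FAP 18, 7 and 9 and then 4, 12 and 6. DCN and DPT, defining genes of fibroblasts, were at 0 in all control and hairpin 1 libraries. The part of these marker levels in the results on collagens and receptors was not tested.

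Most lists had similar calls with both hairpins. With hairpin 3 the keratins had 9 lower, the EMT transcription factors 7 higher and the complement genes 8 higher, the same numbers as with hairpin 1. The NRF2 list differed, with 3 higher and 2 lower. Hairpin 1 called 689 genes that hairpin 3 did not, but a call missed with hairpin 3 is not a difference. Of these 689 genes, 613 had the same fitted sign with hairpin 3. The direct contrast of the hairpins called 628 genes (3.93%). A gene was taken as particular to hairpin 1 where it was called against control with hairpin 1, was not called with hairpin 3, and was called between the hairpins in the same direction. This held for 179 genes, 1.12% of those tested, 75 higher (0.469%) and 104 lower (0.651%), of which 144 were protein-coding. Both hairpins share the control libraries, so their 2 changes are not independent. The fold threshold inside the test left 66 such genes, and its absence gave 632.

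Among rises particular to hairpin 1, CDH6, the gene of kidney cadherin (chromosome 5, 31193750 to 31329146), came up from near its detection limit. It held 3, 0 and 1 counts in control and 1037, 1019 and 922 with hairpin 1, a ratio of 713 with an interval of 278.2 to 2619, and stood at 0.647, 0.384 and 0 CPM with hairpin 3. GPC6, a cell surface proteoglycan of the glypican family (chromosome 13, 93226842 to 94407401), held 0 counts in all control libraries and 95, 117 and 110 with hairpin 1, at least 34.5-fold higher, against 0, 0.110 and 0 CPM with hairpin 3. GABRA3, a receptor subunit for GABA, stood at 0.242, 0 and 0.191 CPM in control, 7.85, 4.83 and 6.82 CPM with hairpin 1 and 0.588, 0.274 and 0.322 CPM with hairpin 3, a log2 difference between the hairpins of 4.05 (SE 0.41, adjusted p = 4.048e-05). PALD1, a paladin phosphatase-like gene, stood at 9.11, 8.80 and 9.82 CPM with hairpin 1 and at or under 0.765 CPM in every library of the other groups. For none of these 4 genes did the hairpin 1 libraries overlap those of either other group, but they were selected for large differences from both. Hairpin 1 and control libraries did not overlap for 47.3% of all tested genes.

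IL6, AKR1C3, AKR1C1 and ABCC3 were also particular to hairpin 1. IL6 met the definition in 8 of 18 alternative settings, and AKR1C3, AKR1C1 and ABCC3 in all 18. IL6 stood at 1.30, 5.98 and 7.64 CPM with hairpin 3, a log2 fold change of 1.53 against control that was not called (adjusted p = 0.1003), and the hairpins differed by 2.04 on the log2 scale (SE 0.57, adjusted p = 0.03518), with hairpin 1 replicate A at 5.65 CPM inside the range of hairpin 3. AKR1C3 stood at 2.59, 6.36 and 8.19 CPM with hairpin 3, a difference of 3.13 (SE 0.38, adjusted p = 0.0001634), and AKR1C1 at 0.942, 2.91 and 3.04 CPM, a difference of 2.69 (SE 0.43). ABCC3 stood at 18.9, 18.3 and 21.2 CPM with hairpin 3, a difference of 2.46 (SE 0.29). Of the NRF2 list, 4 genes were particular to hairpin 1, AKR1C1, AKR1C2, AKR1C3 and NQO1, and with hairpin 3 the list had 3 higher and 2 lower. NQO1 stood at 319, 259 and 330 CPM with hairpin 3. The antioxidant response element core, TGACNNNGC on either strand, stood in 1 of 10 promoters of the called genes of this list and in 12.2% of the promoters of tested genes. The search covered only the stretch before the start site that was read for the E-box, so elements further upstream would be missed. With 10 promoters the count cannot show whether the list differs from tested genes, and a part of NRF2 in these rises was not tested. Among the other named rises were the long noncoding genes RP11-443P15.2 and APCDD1L-AS1, with differences of 3.04 and 2.27. SERPINE2, FLI1 and LIFR, a protease inhibitor, an ETS factor and a cytokine receptor, met the definition too, with mean levels in the control, hairpin 1 and hairpin 3 groups of 28.3, 126 and 52.9 CPM, 13.7, 58.4 and 26.4 CPM, and 10.0, 45.3 and 18.6 CPM. Their log2 fold changes with hairpin 3 were 0.90, 0.95 and 0.89, just under the fold threshold, and they were named after their values were seen.

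Among falls particular to hairpin 1 in genes with a mean of 5 CPM or more in the higher group, the 2 largest were in genes that stood near their control level with hairpin 3. EMC10, a subunit of the membrane protein insertion complex of the endoplasmic reticulum (chromosome 19, 50476400 to 50490870), stood at 33.5, 29.4 and 26.5 CPM in control, 0.280, 0.407 and 0.729 CPM with hairpin 1 and 28.5, 31.3 and 25.4 CPM with hairpin 3. Its log2 fold change was -5.94 with hairpin 1 (SE 0.23, adjusted p = 5.075e-10) and -0.07 with hairpin 3. DNAJC15, a mitochondrial co-chaperone (chromosome 13, 43023203 to 43114224), stood at 32.4, 29.3 and 33.9 CPM in control, 0.561, 1.73 and 1.24 CPM with hairpin 1 and 31.4, 31.4 and 32.3 CPM with hairpin 3 (log2 fold changes -4.76 and -0.01). Each of these falls was larger in size than the fall of MPZL3, the target, at -3.37.

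CTSF, a lysosomal cysteine protease, stood at 23.2, 24.7 and 29.4 CPM in control, 4.16, 4.58 and 3.04 CPM with hairpin 1 and 21.2, 24.5 and 31.7 CPM with hairpin 3. CCND2 stood at 3.12, 4.88 and 4.70 CPM with hairpin 3, with no overlap with the hairpin 1 libraries. MKX, a homeobox factor of tendon, and LRRN1, a leucine-rich repeat membrane protein, differed between the hairpins by -3.15 and -2.62 on the log2 scale. GHDC, CH17-360D5.3, BRSK2, SERINC2 and KIAA1217 lay between control and hairpin 1 when hairpin 3 was used, with log2 fold changes of -0.78, -0.95, -0.58, -0.72 and -0.59 against -3.77, -3.49, -2.84, -2.24 and -2.05 with hairpin 1. BCL2L1 had the same order, at 180.1, 162 and 187 CPM with hairpin 3 and a difference of -1.01 (SE 0.12), and SFRP1, a Wnt antagonist, fell from 15.9, 16.9 and 13.1 CPM to 4.21, 4.94 and 3.60 CPM and stood at 17.7, 25.5 and 20.1 CPM with hairpin 3. The motif CACCTG or CAGGTG stood in 18 of 65 promoters of genes lower in this set (27.7%) and in 10 of 51 of those higher (19.6%). Over all genes called with hairpin 1 it stood in 28.8% of those lower and 13.5% of those higher. The share of the lower set was thus near that of all lower genes.

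**Figure D3:**
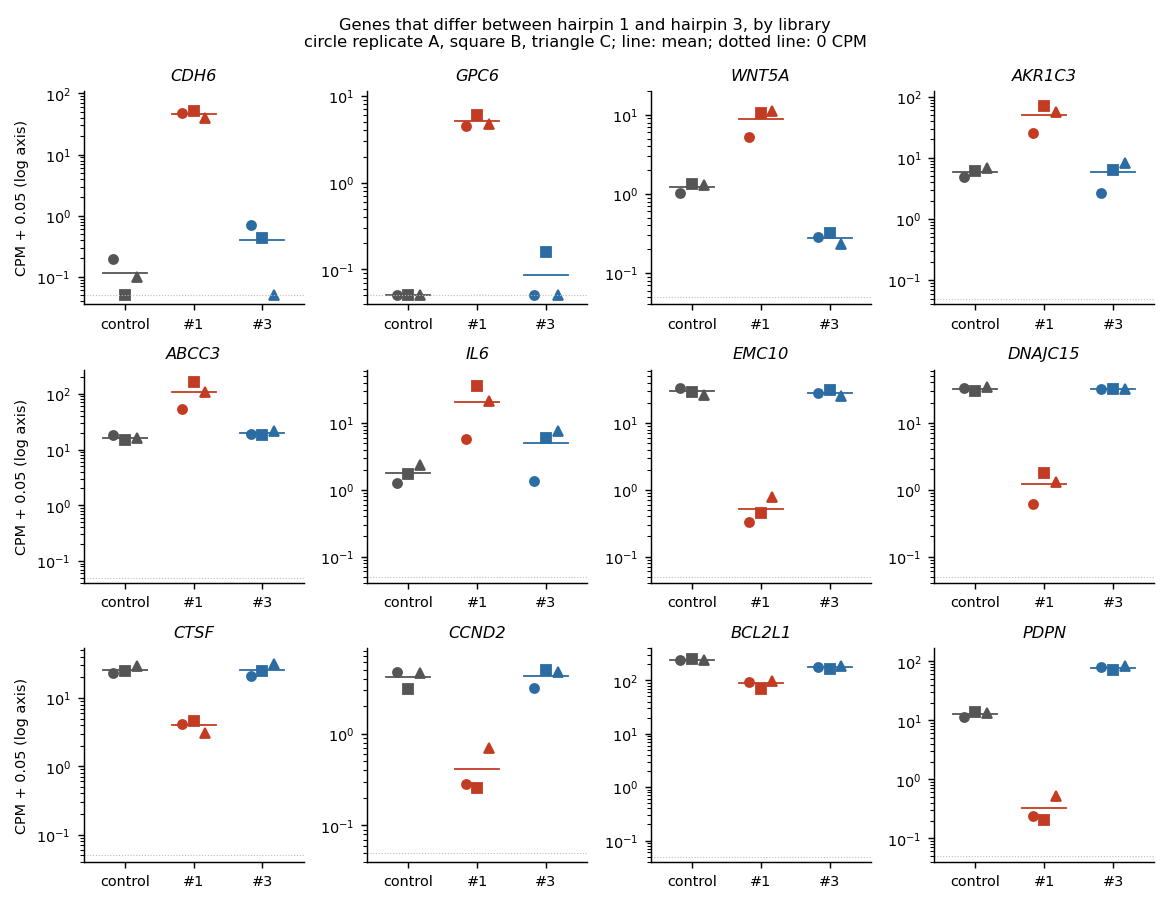
Level of 12 genes that differ between the hairpins in each of the 9 libraries, in CPM plus 0.05 on a log axis, with circles, squares and triangles for replicates A, B and C, a line at the group mean and a dotted line at 0 CPM. EMC10, DNAJC15, CTSF and CCND2 lie low with hairpin 1 and at their control level with hairpin 3, and CDH6 and GPC6 lie high with hairpin 1 alone.

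A further 30 genes were called in opposite directions with the hairpins, and all 30 were called in the direct contrast. That contrast adds little here, since each gene was already at least 2-fold from control in opposite directions. PDPN, the gene of podoplanin, a mucin-like protein of mesothelium and lymphatic vessels, stood at 11.3, 13.6 and 13.1 CPM in control, 0.187, 0.153 and 0.472 CPM with hairpin 1 and 79.7, 72.3 and 82.2 CPM with hairpin 3 (log2 difference -8.10, SE 0.22, adjusted p = 3.079e-10). WNT5A went the opposite way, at 0.235, 0.274 and 0.184 CPM with hairpin 3 (difference 5.24, SE 0.39, adjusted p = 2.951e-06). In both genes, selected for opposite changes, the 3 groups did not overlap. AEBP1, a carboxypeptidase-like matrix protein, had mean levels of 21.0, 1.06 and 115 CPM in the control, hairpin 1 and hairpin 3 groups, and FGF13 of 1.96, 0.264 and 26.0 CPM. FAM155B had mean levels of 5.60, 19.9 and 0.0379 CPM and NHSL2 of 0.810, 9.40 and 0.314 CPM. The last 4 genes were chosen after their values were seen.

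**Figure D4:**
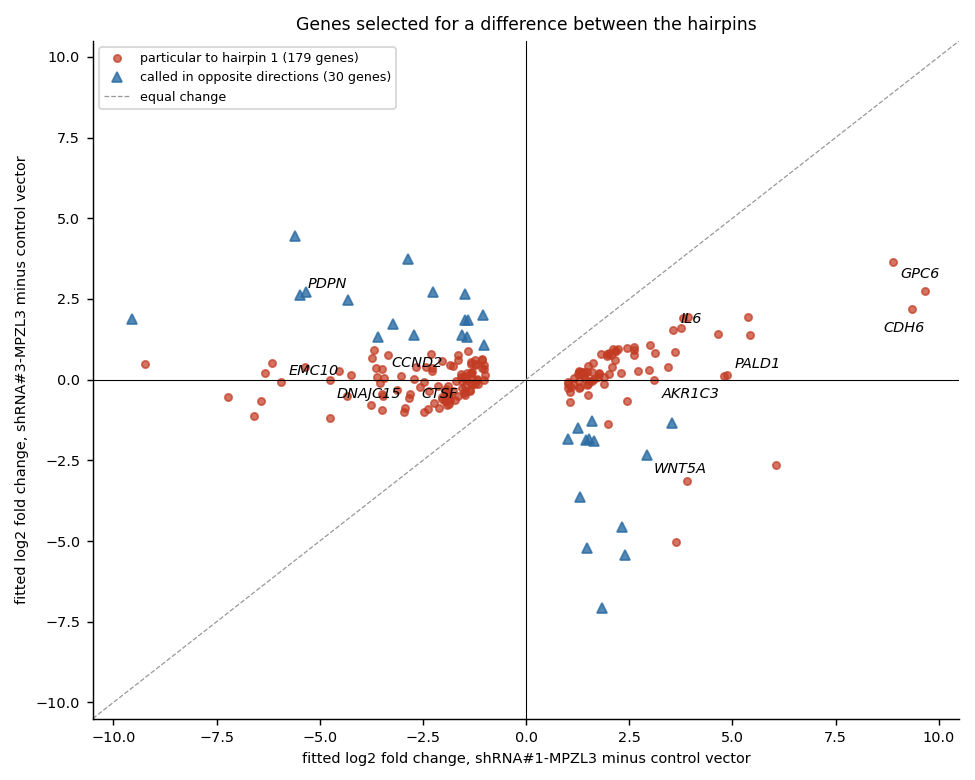
Fitted log2 fold change against control with hairpin 1 (horizontal) and hairpin 3 (vertical) for the 179 genes particular to hairpin 1 (red circles) and the 30 genes called in opposite directions (blue triangles); the dashed line marks equal change. Points lie off the dashed line because the genes were selected for a difference, and fitted values of genes at 0 in a group depend on the prior count.

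Whole chromosomes shifted with hairpin 1, which bears on single genes read there. The shift of a chromosome is the median log2 fold change of its tested genes minus the median of all others. Chromosome 4 was shifted by -0.41 with hairpin 1, or 0.751 times the level of the rest, and by 0.05 with hairpin 3. Per library, against the mean of the control libraries, the values were -0.32, -0.35 and -0.40 with hairpin 1, 0.03 to 0.05 with hairpin 3 and -0.07 to 0.06 in control. Chromosome 20 was shifted by -0.31 (0.805 times), at -0.32, -0.31 and -0.27 per library, against 0.02 to 0.04 with hairpin 3 and -0.02 to 0.02 in control. For both chromosomes the hairpin 1 libraries lay below all others, and an exact permutation test of 3 against 3 libraries gave p = 0.1, the smallest it can reach. Chromosomes 1 and 7, with shifts of only 0.06 and 0.03 with hairpin 1, gave the same p in this test. Chromosomes 4 and 20 were chosen with their shifts in these data known, so the test cannot set them apart. On chromosome 4, 74.4% of 585 genes lay below 0, and on chromosome 20 78.1% of 416.

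The shift ran along the whole chromosome. Over windows of 50 neighbouring genes with at least 10 CPM, all 319 windows of chromosome 4 had a median below 0 with hairpin 1, from -0.55 to -0.22, and all 232 of chromosome 20, from -0.41 to -0.24. With hairpin 3 these windows lay between -0.07 and 0.09 and between -0.11 and 0.07. The direct contrast shifted chromosome 4 by -0.42 and chromosome 20 by -0.36. Chromosome 8 was shifted by -0.36 with hairpin 1, with all of its 303 windows below 0, and by -0.21 with hairpin 3, chromosome 19 by -0.20 and -0.10, and chromosome 11, which holds MPZL3, by -0.14 and -0.19. Chromosomes 9 and 12 were shifted by 0.01 and 0.10 with hairpin 1 and by 0.24 and 0.25 with hairpin 3. The number of copies of each chromosome was not measured in these data, and its part in the shifts was not tested.

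Calls on the shifted chromosomes leaned downward. On chromosome 4, 83 genes fell (14.2% of its tested genes) and 42 rose (7.18%), and on chromosome 20 43 fell (10.3%) and 17 rose (4.09%), against 8.55% and 7.76% over all tested genes. Of the 13 genes of chromosome 4 that were particular to hairpin 1 all were lower, and of the 11 on chromosome 20 10 were lower. With the median of each chromosome removed from each group, 51 genes fell and 59 rose on chromosome 4, and 32 fell and 24 rose on chromosome 20. Of the lower genes particular to hairpin 1, 4 of 13 then remained on chromosome 4 (CDKL2, RP11-241F15.1, TDO2 and ZFYVE28) and 5 of 10 on chromosome 20 (ABALON, FOXA2, SPTLC3, TSPY26P and ZNF334).

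Named genes on these chromosomes divided by the size of their change. FGFBP1, a secreted carrier of growth factors on chromosome 4, went from 133, 134 and 143 CPM to 12.1, 11.7 and 14.1 CPM (log2 fold change -3.43), LAMA5, a laminin chain on chromosome 20, from 696, 744 and 843 CPM to 186, 225 and 178 CPM (-1.95), and OVOL2 fell by 7.29, and these kept their call. ANXA3, MAEA and SHROOM3 on chromosome 4, an annexin, a ubiquitin ligase subunit and an actin regulator, had log2 fold changes of -1.17, -1.14 and -1.204 and were at -0.77, -0.74 and -0.80 with the median removed, under the fold threshold. PPDPF on chromosome 20 went from -1.13 to -0.82. BCL2L1 lies on chromosome 20, and the median change of its 50 neighbours was -0.34 with hairpin 1 and -0.03 with hairpin 3. With hairpin 3 BCL2L1 itself was at -0.48 against control (edgeR adjusted p = 0.008268), under the fold threshold. SPRY1 and FGFR3 on chromosome 4 had neighbours at -0.30 and -0.52. With chromosome medians removed, BCL2L1, SPRY1 and FGFR3 no longer met the definition of particular to hairpin 1.

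A stretch of chromosome 5 rose instead. From CCDC127 to ADAMTS6 (196871 to 65481920) the 105 genes with at least 10 CPM had a median of 0.43 with hairpin 1, -0.25 with hairpin 3 and 0.69 between the hairpins. The stretch holds 9 of the 179 genes particular to hairpin 1, CDH6, LIFR, SKP2, NADK2, AHRR, UGT3A2, LINC01021, RP11-332J15.3 and CTD-2353F22.2. The neighbours of CDH6 had a median of 0.52 with hairpin 1 and -0.22 with hairpin 3, against a ratio of 713 for CDH6 itself. In all, 31 of the 179 genes had neighbours whose median difference between the hairpins was past 0.3 in the direction of the gene. The neighbours of GPC6, at 0.07 with hairpin 1 and -0.01 with hairpin 3, were not among them.

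**Figure D5:**
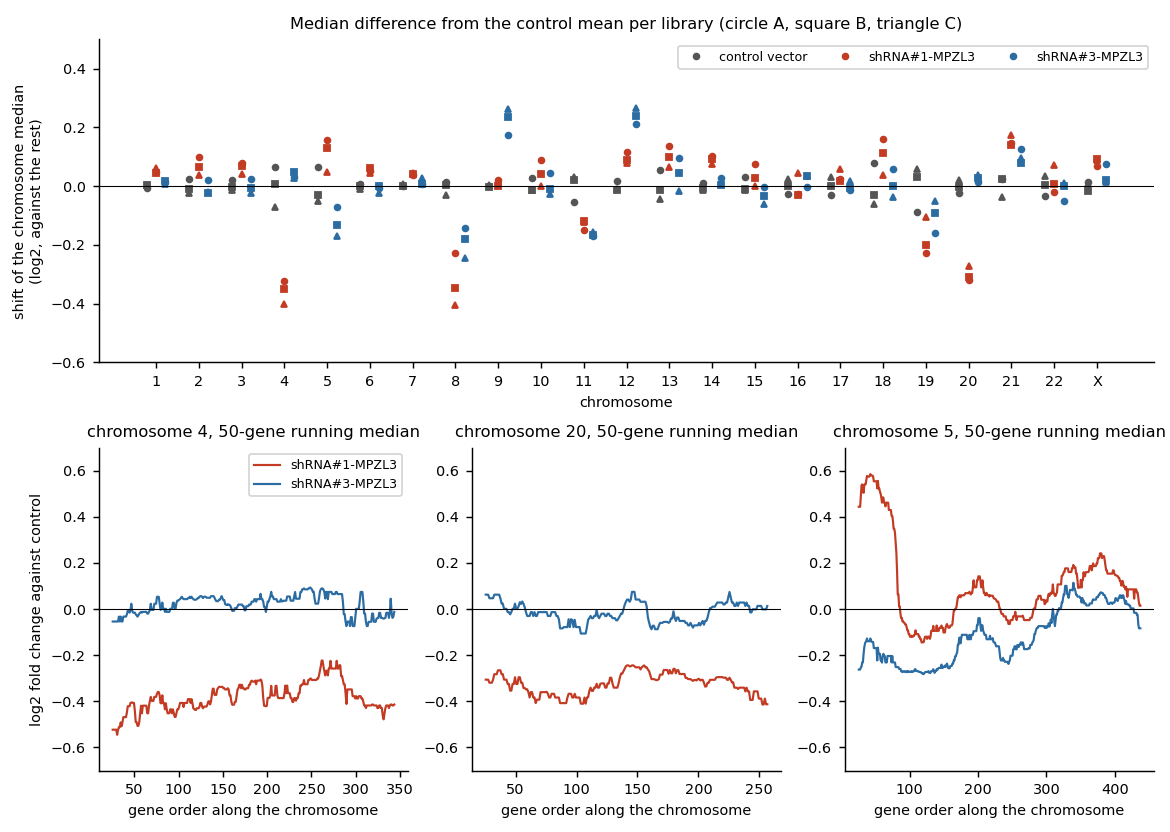
Top, shift of the median log2 difference of each chromosome against the rest in each library, with circles, squares and triangles for replicates A, B and C; bottom, running median over 50 neighbouring genes along chromosomes 4, 20 and 5 for hairpin 1 (red) and hairpin 3 (blue). Hairpin 1 lies below 0 along all of chromosomes 4 and 20 and above 0 over the first stretch of chromosome 5.

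Of 185 genes picked by the rule for named genes, 48 share exon sequence with another annotated gene, and the libraries carry no strand. Among the genes described here these include VIM with VIM-AS1, ZEB1 with ZEB1-AS1, LAD1 with TNNT2, CRB3 with DENND1C, EMC10 with FAM71E1, BCL2L1 with ABALON, CDH6 with RP11-152K4.2 and SOD2 with WTAP, and their values are uncertain to that extent.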

How the data were processed

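Poly(A) RNA of OVCA433 cells was sequenced from non-directional libraries. The deposited values are raw read counts per gene, which the authors made, per the submitters' processing notes, with HISAT2 2.0.5 and featureCounts 1.5.0-p3 on hg38. The annotation release and the handling of reads on shared exons are not given in the sources used here. All 58676 gene identifiers are in GENCODE release 29. The study pooled both hairpins against control with DESeq2, while here each hairpin was compared on its own.

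Counts were tested with edgeR 4.0.16 (R 4.3.3) by the quasi-likelihood F-test with TMM factors, over all 9 libraries in 3 groups, which then share 1 estimate of the spread, after filterByExpr (minimum count 10, minimum total 15). Genes tested held 99.889% of the counts. A call took a Benjamini-Hochberg adjusted p under 0.05 and a log2 change of at least 1. DESeq2 1.42.0, other scalings and filters, a replicate block and leaving out each library were alternatives, and the code was tested on simulated data. Intervals of ratios are 95% exact conditional binomial.

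The genes named were 16 markers, the 8 largest rises and falls among called protein-coding genes at 10 CPM or more in the higher group, up to 4 called genes of each list by size of change (2 where none was called), the 10 largest rises and falls particular to hairpin 1 at 5 CPM or more, and on chromosomes 4 and 20 the called list genes and the 4 called falls of highest control level. Further members are named beside their list with their values in view. The comparison, the lists and these rules were chosen with earlier results of these data known. Some genes of the lists are not reported here.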

Additional observations from a re-analysis of the deposited data

Results flagged for a closer look

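The hairpins differed in a direct test between their libraries, by edgeR with adjusted p under 0.05 and at least 2-fold, for 179 genes called with hairpin 1 alone and for 30 genes called in opposite directions. The direct test is part of the definition of the 179 genes, and for the 30 it follows nearly from their selection. The shift of chromosome 4 differed between the hairpins by -0.42 and that of chromosome 20 by -0.36 (log2, hairpin 1 minus hairpin 3), and for these the difference between the hairpins was not tested.

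Among named genes called with hairpin 1 alone, the log2 difference, hairpin 1 minus hairpin 3, was above 0 for CDH6 (7.16), GPC6 (6.93), PALD1 (4.74), GABRA3 (4.05), AKR1C3 (3.13), RP11-443P15.2 (3.04), AKR1C1 (2.69), ABCC3 (2.46), APCDD1L-AS1 (2.27), IL6 (2.04) and MFNG (1.83). It was below 0 for EEF1A2 (-1.004), BCL2L1 (-1.01), FGFR3 (-1.13), SPRY1 (-1.43), KIAA1217 (-1.46), SERINC2 (-1.52), BRSK2 (-2.26), FOXA2 (-2.38), CH17-360D5.3 (-2.54), LRRN1 (-2.62), CTSF (-2.72), GHDC (-2.99), MKX (-3.15), CCND2 (-3.50), DNAJC15 (-4.76) and EMC10 (-5.87). Of these, EEF1A2, BCL2L1, FGFR3 and SPRY1 no longer met the definition once chromosome medians were removed. Among genes called in opposite directions it was 5.24 for WNT5A and -8.10 for PDPN. Named genes that both hairpins moved the same way, but by different amounts, were above 0 in EGLN3 (3.05), COL1A2 (1.60), EGR1 (1.46), TFAP2C (1.44), SOD2 (1.21), DOCK10 (1.14), C4BPB (1.06) and NDRG1 (1.00) and below 0 in RBM47 (-1.09), CD248 (-1.46), AREG (-1.64), IGF2 (-2.73), BGN (-2.73), ID4 (-2.88), GRHL2 (-5.45) and CBLC (-6.53). The fitted values of GRHL2, CBLC and GPC6, at 0 in all libraries of a group, depend on the prior count. Groups held 3 libraries each, so no test for a stray library was made.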

How the results depend on the processing

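The count of genes changed with hairpin 1 was 2605, and 6032 without the fold threshold and 1539 with it inside the test. Genes particular to hairpin 1 numbered 179, and 632 and 66 under these settings. With single libraries left out, 2462 to 2780 genes were changed and 151 to 220 were particular. MPZL3 with hairpin 1 then ran from -3.281 to -3.507 on the log2 scale. DESeq2 called 2581 genes, of which 182 were particular. The chromosome 4 shift with hairpin 1 was -0.3344 with no filter on low counts and -0.3674 with replicates B and C alone, a setting chosen after the data were seen, and -0.3597 to -0.4367 with single libraries left out. The chromosome 20 shift with hairpin 1 was -0.2569 with no filter and -0.3046 to -0.3396 with single libraries left out. SNAI2, uncalled at -0.05, ranged from -0.1472 to 0.04786 over the leave-outs, crossing 0 when control A (0.02032) or hairpin 1 B was dropped, and was 0.3045 with chromosome medians removed. LMNB1, uncalled at 0.03, ranged from -0.1151 to 0.1717, being below 0 when control B (-0.05125), control C (-0.03663) or hairpin 1 A was dropped, and was -0.05189 with chromosome medians removed. The cause of these changes was not tested. Over 184 named genes and 3475 comparisons with an alternative, 3422 kept direction and call, 43 lost the call, 3 gained it and 7 changed sign.

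The replicate letters paired the libraries in part. The correlation of their deviations between control and hairpin 1 was 0.323 for A, 0.0373 for B and 0.155 for C. Control A stood at -0.139 and -0.235 with hairpin 1 replicates B and C, so replicate A shared a component across these groups. Control B correlated better with hairpin 1 replicate C (0.113) than with B. Of 6 libraries, 4 correlated best with their own letter. With the letter as a replicate block 2675 genes were changed, 208 were particular, MPZL3 with hairpin 1 was at -3.364, the chromosome 4 shift with hairpin 1 was -0.4129, the chromosome 20 shift with hairpin 1 was -0.3134, and no call of a named gene changed. Genes at 3 counts or fewer in a group are limited by depth, and their fitted change depends on the prior count.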
